A study of Mus musculus with 12 samples.

Results

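The loss of transcripts was followed in wild-type (WT) embryoid bodies (EBs), using the 3 WT EB libraries of a set of 12, collected 0, 4 and 8 h after actinomycin. Members were the RefSeq transcript entries with a deposited level of at least 300 in the WT EB library of 0 h, which kept 4717 of 19708 entries. For each of them the share of the 0 h level left at 4 h and at 8 h was computed, both as deposited and relative to the median transcript. The study sequenced the 3′ ends of polyadenylated RNA from mouse cells of the C57BL/6 strain. WT EBs and EBs knocked out for Mettl3, the catalytic subunit of the complex that places m6A on adenosines of mRNA, were set beside WT and knockout (KO) embryonic stem cells (ESCs), each at the same 3 times after actinomycin. EBs were grown from ESCs without attachment in serum medium for 8 to 21 days, and ESCs were held in serum-free medium with LIF and a pair of inhibitors called 2i. Each of the 12 combinations of genotype, cell type and time had 1 library and no replicate. The labels do not say whether the 3 times came from the same culture. Every share is a single measurement and each p-value measures only the scatter of single libraries around straight lines over time.

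Actinomycin D binds DNA and stops RNA polymerases, so that no new transcripts replace those that are degraded. Most mRNAs are lost by shortening of the poly(A) tail, removal of the cap and digestion by exonucleases from both ends. The speed differs between genes: messages of regulators that must be switched off quickly, such as immediate early transcription factors and inhibitors of signalling, tend to be short-lived, and messages of ribosomal proteins, metabolic enzymes and structural proteins tend to be long-lived. AU-rich elements in the 3′ untranslated region (UTR), built around the pentamer ATTTA, recruit proteins such as ZFP36 that speed up deadenylation, and Pumilio proteins bind the octamer TGTANATA with a like outcome. EBs are aggregates in which ESCs differentiate, typically with an outer layer of endoderm that lays down a basement membrane, while part of the cells can stay pluripotent.

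To show what such an element looks like in transcripts that were lost fast in WT EBs, the first TATTTAT heptamer in the 3′ UTR is printed for 8 of the 15 members that carry it among 27 with a fast loss (less than 0.5 of the median share at 8 h) from the lists of immediate early, signalling feedback and BMP, TGF-beta and Nodal genes; the 8 were picked after their values were seen. All sequences are read 5′ to 3′ along the transcript from the GENCODE M21 annotation of GRCm38 (mm10), with the heptamer in capitals and flanking UTR bases in lower case.
Pim3: ccacggtctctTATTTATggtgtgatcac
Nodal: atatatatatgTATTTATttttgatgcca
Csrnp1: cactctgaattTATTTATttttttatgtt
Dusp1: gagctggtcctTATTTATttaacaccccc
Sgk1: aaaacgggcatTATTTATgttttttttcc
Ier3: tgtctaattaaTATTTATgtatttatgta
Klf6: gctacgtctctTATTTATgccttgaggac
Spry2: agtgtaaagaaTATTTATttgaagtttta
These stretches lie at chr15:88865221-88865249 (plus strand) for Pim3, chr10:61424943-61424971 (plus) for Nodal, chr9:119972067-119972095 (minus) for Csrnp1, chr17:26506159-26506187 (minus) for Dusp1, chr10:21999635-21999663 (plus) for Sgk1, chr17:35822481-35822509 (plus) for Ier3, chr13:5868490-5868518 (plus) for Klf6 and chr14:105892092-105892120 (minus) for Spry2. Pim3 encodes a serine/threonine kinase, Nodal is a TGF-beta ligand of the early embryo, Csrnp1 and Klf6 are inducible transcription factors, Dusp1 is a phosphatase of MAP kinases, Sgk1 is a serum-induced kinase, Ier3 is an early response gene and Spry2 restrains receptor tyrosine kinase signalling. The heptamer was searched on the transcript strand only, with overlaps counted, and it contains the pentamer ATTTA. It occurred in 1116 of the 4599 kept entries with an annotated 3′ UTR (24.3%), in 11 of 18 immediate early entries (61.1%), in 6 of 10 feedback entries (60%) and in 4 of 12 BMP, TGF-beta and Nodal entries (33.3%). A match is a stretch of letters and not a measured binding site.

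The deposited column totals of WT EBs were 8311484, 6056954 and 3673848 at 0, 4 and 8 h, and the library of 8 h held 208872 read equivalents, the fewest of the 12 libraries (208872 to 666799). Endoderm markers were present in WT EBs, with 7 of 7 higher at 0 h than in WT ESCs and a summed level of 7064.9 in WT EBs against 143.3 in WT ESCs, and 4 of 4 basement membrane markers were higher as well. The 7 markers of undifferentiated cells were all lower, with a sum of 21822.8 in WT EBs against 55238.3 in WT ESCs, so pluripotent transcripts remained in these EBs. Defining markers of mesoderm, heart and blood were near background, with 3 of 7 at 0 and a sum of 159.5. Of the wider list of 27 mesoderm, heart and blood genes, 3 were kept, namely Mesp1 (1075.9 at 0 h in WT EBs, against 1199.8 in WT ESCs), Tagln (358.9 against 27.1) and Pecam1 (344.5 against 208.9). In bulk samples fewer cells of a type and less RNA per cell cannot be told apart. Gene families not known to act in such cells, for example olfactory receptors (called silent families here), were above 0 in 26.8%, 31.6% and 34.2% of 1424 entries in WT EBs at 0, 4 and 8 h, with mean levels of 9.32, 11.1 and 14.5, against 6.81% to 9.62% above 0 in WT ESCs. Their level of 8 h that covered 95% of entries was 72.7, and 559 of the 4717 kept entries (11.9%) were at or below it at 8 h.

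Transcript levels in WT EBs fell broadly and steadily. The median kept entry had 60.8% of its 0 h level left at 4 h and 31.4% at 8 h. Levels fell in both intervals for 3946 entries (83.7%), whereas 22 entries (0.466%) rose in both, and 75 entries (1.59%) stood above their own 0 h level at 8 h. At 8 h the central 50% of entries lay between 20.3% and 43.5% left, and the central 90% between 9.15% and 72.8%. The median entry kept 53.1% of its 4 h level at 8 h. As deposited, the median entries of the other conditions had 69.8% left at 8 h in WT ESCs, 76.5% in KO EBs and 90.7% in KO ESCs. The deposited scaling does not hold column totals equal, and after setting equal totals the WT EB medians were 83.4% at 4 h and 71% at 8 h, so the absolute share rests on that scaling. The order of the conditions rests on it too: at 8 h, equal totals gave 71% in WT EBs, against 76.5% in WT ESCs, 86.6% in KO EBs and 85.4% in KO ESCs, and ribosomal protein scaling gave 81.4% in WT EBs, against 58.2%, 80.1% and 57.6% in WT ESCs, KO EBs and KO ESCs. Keeping entries by a mean of at least 300 over the 3 WT EB libraries gave 69% and 35.1%.

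**Figure D1:**
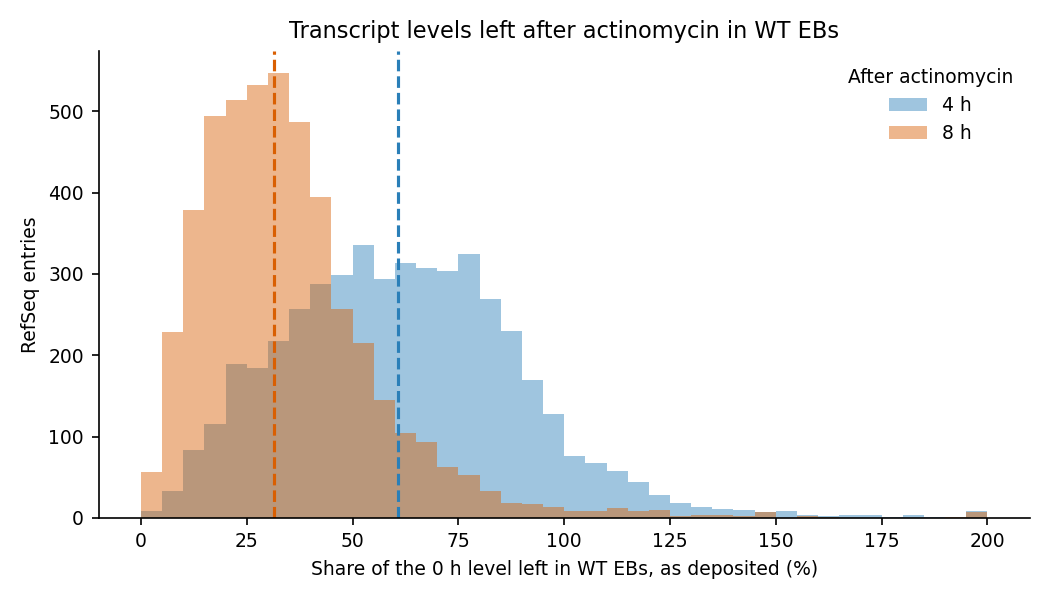
Number of RefSeq entries (y axis) by share of the 0 h level left in WT EBs, as deposited, in percent (x axis, bins of 5%) at 4 h (blue) and 8 h (orange) over the 4717 kept entries. Dashed lines are the medians, 60.8% at 4 h and 31.4% at 8 h, and shares beyond the axis are drawn in the last bin.

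Short- and long-lived classes are therefore described relative to the median transcript. The scaled share is the share left divided by the median-ratio factor of that library, 0.604 at 4 h and 0.317 at 8 h, so that 1 means a loss like that of the median transcript. At 8 h, 742 kept entries (15.7%) had a scaled share below 0.5 and 405 (8.59%) had one above 2. Entries with 0 h levels of 2000 or more lost less by 8 h. The median share left was 30% for 0 h levels of 300 to 500, 28.6% for 500 to 1000 and 31.1% for 1000 to 2000. It was 37.5% for 2000 to 5000 and 39.9% from 5000 up. The 0 h level is also the divisor of the share. A threshold of 100 in place of 300 gave a median of 37.3%, so the relation did not continue to lower levels. At the threshold, Capn2 (299.8 at 0 h, 62.2% left at 8 h) and Kcnip1 (299.8, 130.1% left) were just outside, and Med11 (300.1, 25.2% left) and Nat10 (300.4, 47.2% left) just inside. Slopes over hours relative to the median transcript were tested with limma across 12704 entries, with Benjamini-Hochberg adjustment and a threshold of 0.05. Among the kept entries 70 fell faster (1.48%) and 59 fell more slowly or rose (1.25%), against 81 (0.638%) and 83 (0.653%) of all entries tested. With the levels as deposited, 2987 kept entries (63.3%) fell and 5 (0.106%) rose by the same test, against 26.7% and 0.126% of all entries tested, the 5 being Malat1, Cdk8, Col6a6, Zfp791 and Peak1. These calls rest on the end points: without the WT EB library of 0 h the number called among all entries tested was 0, and without that of 8 h it was 4, against 164.

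Of the 70 called falls, 38 stood on 3 or fewer read equivalents at 8 h and 40 ended at or below the silent-family level of 72.7, so the bottom of their courses is poorly resolved. With weights for counting error, an alternative chosen after seeing the data, 55 of the 70 falls and 59 of the 59 rises were also called, among 64 kept entries lower (1.36%) and 89 higher (1.89%). The steepest falls by slope belonged to Ccnq, Ddias, Mrm3 and Dusp5, each at 0 at 8 h. Ccnq, a cyclin, had 393.3 and 51.2 at 0 and 4 h, and a level of 3 reads at 8 h would be 13.4% of its 0 h level, while its 95% exact counting interval reaches 17.5%. The same values were 15.4% and 20.8% for Ddias, 16.5% and 21.8% for Mrm3, a methyltransferase of mitochondrial ribosomal RNA, and 16.9% and 23% for Dusp5, an ERK phosphatase. Pim3 had levels of 1627.2, 139.7 and 16.5 at 0, 4 and 8 h, or 1.02% left (95% counting interval 0.03% to 6.13%), with a slope of -0.59 per hour (SE 0.11, limma adjusted p = 0.0141). Pim3 was followed in the order of slopes by Zmym1, Mrpl44, Zmynd19, Med17, Zfp622, Clk3 and Med28, which had 1.8% to 3.17% left at 8 h on 1 or 2 read equivalents each. All 12 had at most 39.5% left at 4 h already.

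Among the called falls with at least 10 read equivalents at 8 h, a group of 14 picked out after its values were seen, Utf1 was the steepest. Utf1, a chromatin-associated factor of pluripotent cells, had levels of 7458.5, 2121.5 and 299 at 0, 4 and 8 h, or 4.01% left at 8 h (2.32% to 6.48%), with a slope of -0.37 per hour (SE 0.05, limma adjusted p = 0.0023). Atf4, the transcription factor of the integrated stress response, had 7291.7, 1329.4 and 417.6, or 5.73% left. Tsc22d1, a leucine zipper protein induced by TGF-beta, had 4332.1, 1053.5 and 199.5, or 4.6% left. Thus messages abundant at the start were nearly gone by 8 h. Rest, the repressor of neuronal genes, kept 9.37%, Slc2a1, a glucose transporter, kept 12.2%, and Ubb, a polyubiquitin gene, kept 11.9%. The other members of this group were Zfp428, Vapa, Msh6, Mrpl15, Nr0b1, Top2a, Tubb4b and Ccne1. Nr0b1 was not called under the counting weights (limma adjusted p = 0.0549).

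**Figure D2:**
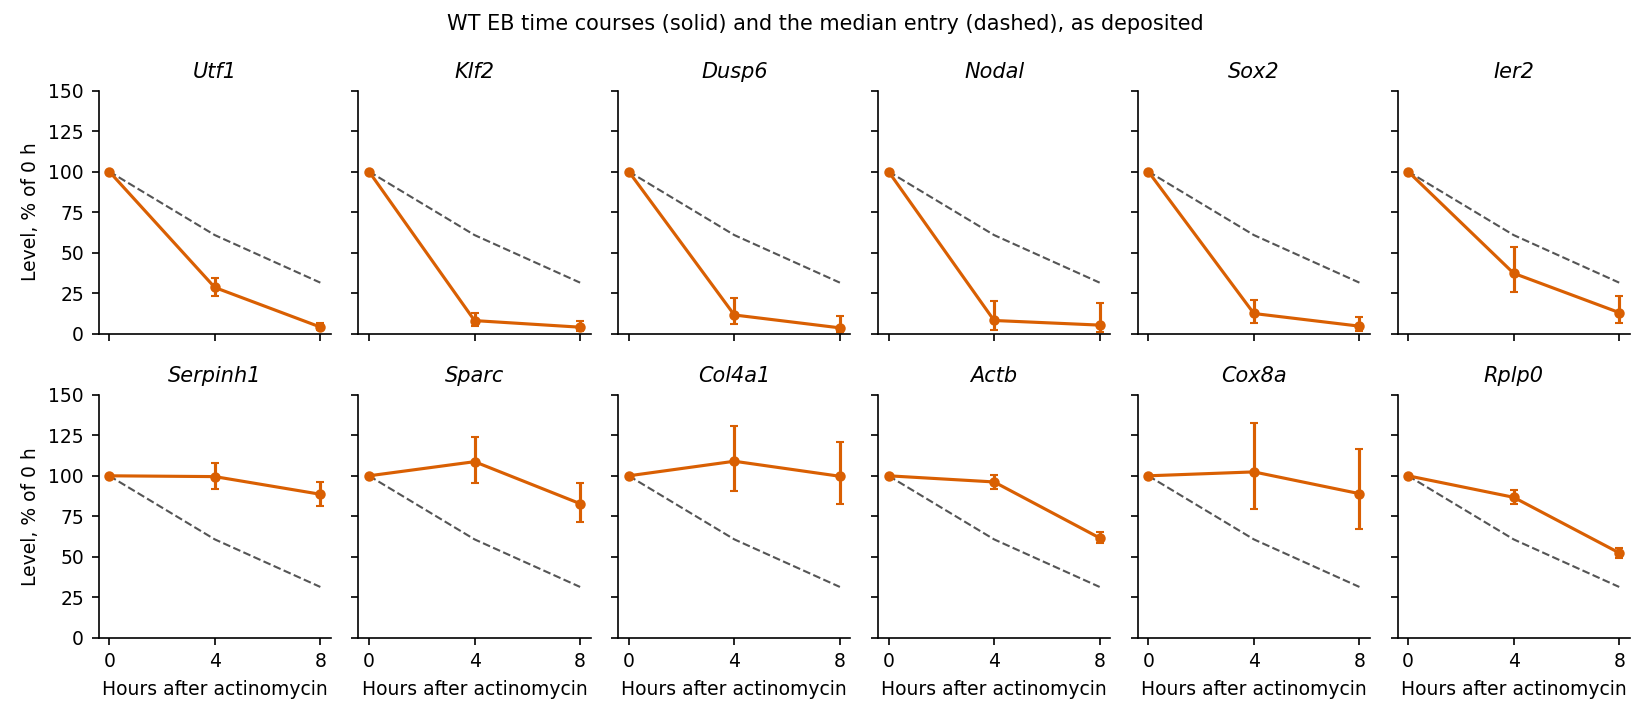
Level in percent of the 0 h level, as deposited (y axis), against hours after actinomycin (x axis) in WT EBs. The upper row shows 6 transcripts that lost most of their level. The lower row shows 6 that lost less than the median kept entry, with 52.4% left for Rplp0 and 61.7% for Actb at 8 h. Points are single libraries with 95% counting intervals, and the dashed line is the median kept entry; Utf1 ended at 4.01% and Serpinh1 at 88.6%, against a median of 31.4%.

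Immediate early genes and inhibitors of signalling were among the shortest-lived classes. For the counts in this and later classes, 15.7% of all kept entries had a scaled share below 0.5 and 8.59% had one above 2. Of all kept entries, 1.48% were called lower and 1.25% higher. Of 41 listed immediate early and growth-factor response genes, 18 were kept, their median share left was 21.3% at 4 h and 11.5% at 8 h, and 12 of 18 had a scaled share below 0.5 at 8 h, against 15.7% of all kept entries. Ier2, an immediate early transcription regulator, had 1769.9, 658.4 and 229 at 0, 4 and 8 h, or 12.9% left at 8 h (6.7% to 23%). Sgk1 had 1067.7, 71.5 and 76.3, so that its level at 8 h was no lower than at 4 h. Ccn1, a secreted matrix-associated growth-factor target, followed the same course with 1548.7, 236.7 and 231.1. Its relative Ccn2, the most abundant member, was slower, with 28.1% left at 8 h, and Junb, a subunit of AP-1, ended highest of the list with 42.8% left. Mycn, a MYC family transcription factor, was the member with the least left at 8 h, 3.57% on 2 read equivalents (0.46% to 14.8%), and the only one called lower (slope -0.38 per hour, SE 0.08, limma adjusted p = 0.034).

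Feedback genes of ERK and JAK-STAT signalling lost as much. Of 27 listed, 11 were kept, with a median of 22.3% left at 4 h and 11.3% at 8 h, 7 of 11 had a scaled share below 0.5, and 2 (Pim3 and Dusp5) were called lower. Dusp6, the ERK-specific phosphatase, had 1502.5, 172.3 and 52.8, or 3.51% left at 8 h (0.71% to 10.6%), but its slope of -0.39 per hour (SE 0.14, limma adjusted p = 0.167) did not pass. Etv5 and Etv4 are ETS factors induced by FGF signalling, and they differed within the class. Etv5 had 1767.5, 619.5 and 160.8, or 9.1% left, whereas Etv4 had 1133.2, 924.4 and 484, or 42.7% left, the highest of the list.

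Targets and inhibitors of BMP, TGF-beta and Nodal signalling behaved alike, with 12 of 23 kept, a median of 21.3% left at 4 h and 12.5% at 8 h, 8 of 12 below a scaled share of 0.5 and 2 called lower. Tgif1 and Tgif2, homeodomain repressors that limit SMAD signalling, were those called. Tgif1 had 1525.4, 332 and 59.1, or 3.87% left (0.7% to 10.4%, slope -0.37 per hour, SE 0.05, limma adjusted p = 0.00112). Tgif2 had 4.83% left (0.51% to 16.5%, limma adjusted p = 0.0198). Both ended below the silent-family level of 72.7, on 3 read equivalents for Tgif1 and 2 for Tgif2, so their shares are poorly resolved. Nodal had 850.8, 68.6 and 44.3, or 5.21% left at 8 h, which was also below 72.7. Lefty2, a secreted Nodal antagonist and the most abundant member, had 2098.8, 660.1 and 252.6, or 12% left. Id1, an inhibitor of basic helix-loop-helix factors and a BMP target, had 12.9% left. Hes6, a helix-loop-helix factor of neural progenitors, ended highest with 33.9%.

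Clustered histone genes, whose main products are made in S phase and end in a stem-loop without a poly(A) tail, had 8 of 45 entries kept, with levels of 330 to 715 at 0 h. Their median share left was 28.2% at 4 h and 10.3% at 8 h, and 7 of 8 had a scaled share below 0.5. None was called by limma (0 lower and 0 higher). The 7 that were also kept in WT ESCs all ended at or below the silent-family level of 72.7, so the 8 h shares are poorly resolved. H2bc8 had 714.9, 154.2 and 67.9, or 9.5% left at 8 h (2.56% to 26.6%). H2ac18 ended highest, with 329.8, 86.6 and 89.7, or 27.2% left. Poly(A) selection sees only the polyadenylated part of such transcripts, and reads of near-identical histone copies may be split between entries. Histone variants and other chromatin proteins coded outside the clusters (16 of 20 kept) were far slower, with a median of 36.8% left and 0 of 16 below 0.5.

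Naive pluripotency factors also decayed faster than the median transcript. Of 20 listed, 16 were kept, with medians of 32.6% left at 4 h and 14.2% at 8 h. A scaled share below 0.5 was found in 9 of 16, against 15.7% of all kept entries, and 4 were called lower, against 1.48%. Klf2, a Krüppel-like factor, had 3836.3, 306.5 and 150.6, or 3.92% left (1.86% to 7.95%), yet its slope did not pass (-0.37 per hour, SE 0.10, limma adjusted p = 0.0894). Klf2 had 7.99% left by 4 h, so most of its loss preceded that time. Esrrb, a nuclear receptor, had 1852.3, 343.5 and 84.4, or 4.56% left (limma adjusted p = 0.00571). Nr0b1, an orphan nuclear receptor, had 2321.5, 1224.2 and 229.7, or 52.7% left at 4 h and 9.89% at 8 h (limma adjusted p = 0.049). Nanog, the homeodomain factor of the naive state, had 962.6, 305.9 and 85.5, or 8.88% left (limma adjusted p = 0.0299). Zfp42 (REX1), listed among the zinc-finger genes too, had 1717, 218.3 and 71.8, or 4.18% left (limma adjusted p = 0.0157). Slower members included Tdh, threonine dehydrogenase, with 28% left. Tbx3, a T-box factor, ended highest with 40% left on 10 read equivalents (17.4% to 83.8%).

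Core pluripotency genes split into fast and slow members. Of 18 listed, 16 were kept, with medians of 47.9% left at 4 h and 17% at 8 h, 5 of 16 below a scaled share of 0.5 and 2 called lower (Utf1 and Jarid2, which the Polycomb list holds too). Pou5f1 (OCT4), the most abundant, had 14527.5, 11885.1 and 5331.9, or 36.7% left (32.1% to 41.8%), a loss like that of the median transcript (slope 0.03 per hour, SE 0.03, limma adjusted p = 0.544). Its partner Sox2 had 2006.7, 248.2 and 91.5, or 4.56% left (1.4% to 10.5%; slope -0.35, SE 0.10, limma adjusted p = 0.106). The counting intervals of these partner factors did not overlap, but they leave out variation between libraries. Dppa5a, an RNA-binding protein of pluripotent cells, kept 36.7% and Epcam, an epithelial adhesion molecule, kept 42.2%, the highest of the list. Formative and primed pluripotency genes (9 of 15 kept) had a median of 17.3% left. Zic2, a zinc-finger factor, had 840.5, 47.3 and 36.6, or 4.35% left, and Foxd3, a forkhead factor, had 923.2, 115.9 and 79.2, or 8.57% left. Dnmt3b, a de novo DNA methyltransferase, kept 36.1%, and Fst, an activin antagonist, kept 65.9%.

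**Figure D3:**
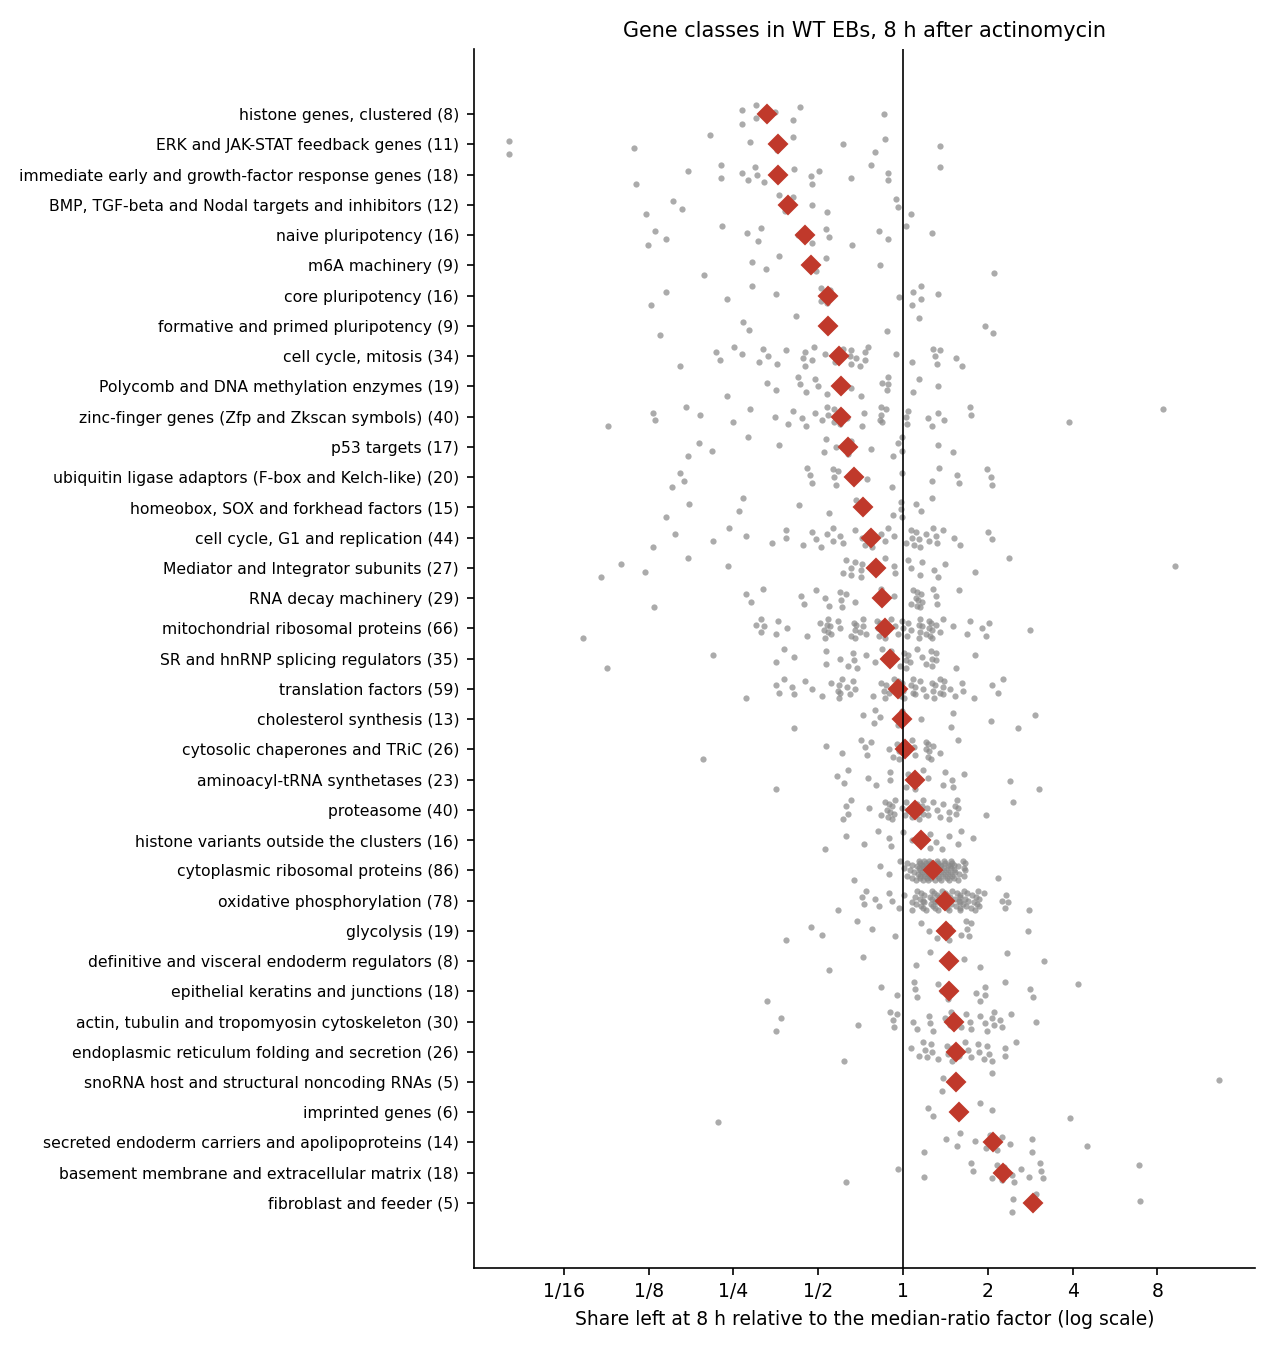
Scaled share left at 8 h in WT EBs (x axis, log scale; 1 is a loss like the median transcript) for the kept members of each gene class with at least 5 members (rows, number in brackets). Grey points are entries, red diamonds are class medians, and shares below 0.04 are drawn at 0.04; clustered histones had a median of 0.33 and extracellular matrix genes one of 2.26.

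The m6A machinery itself, with 9 of 15 genes kept, had medians of 40.8% left at 4 h and 14.8% at 8 h. At 8 h, 6 of 9 were below a scaled share of 0.5. Those 6 ended at levels of 38.7 to 58.8, below the silent-family level of 72.7, so their shares at 8 h are poorly resolved. Ythdf2, a reader that brings m6A-marked mRNA to deadenylases, had 795.2, 226.3 and 49.6, or 6.24% left (1.33% to 20.5%), and was called lower (slope -0.29 per hour, SE 0.05, limma adjusted p = 0.0124). Wtap, an adaptor of the writer complex, had 635.8, 191.3 and 58.8, or 9.24% left. Virma, the large scaffold subunit of the same complex, kept 66.6% (31.1% to 128%), the highest of the list. So subunits of the same complex ended far apart, on 3 read equivalents for Wtap and 14 for Virma.

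Genes of mitosis lost more than the median transcript, and more so at 8 h than at 4 h. Of 40 listed, 34 were kept, with a median of 51.5% left at 4 h and 18.8% at 8 h (scaled 0.85 and 0.59), and 15 of 34 were below a scaled share of 0.5. Cdk1, the mitotic kinase, had 3270, 1278.6 and 457.3, or 14% left (8.95% to 21.1%). Top2a, the decatenating topoisomerase of dividing cells, had 2383.6, 985.9 and 250.1, or 10.5% left, and was the only member called (limma adjusted p = 0.049). Fbxo5 (EMI1), an inhibitor of the anaphase-promoting complex, was early, with 2032.6, 204.1 and 104.1. Ube2c, the ubiquitin-conjugating enzyme of that complex, kept 29.8%, and Tpx2, a spindle assembly factor, kept 51.2%. Genes of G1 and replication (44 of 51 kept) were nearer the median, with 24.5% left at 8 h. Below 0.5 were 11 of 44, against 15.7% of all kept entries. In that list Gmnn (geminin), an inhibitor of replication licensing, had 4.13% left and was called lower (limma adjusted p = 0.0264), Mcm3, a helicase subunit, had 14%, and Lig1, the replicative DNA ligase, had 65.3%.

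Other regulators of gene activity lay on the short-lived side of the median as well. Polycomb and DNA methylation enzymes (19 of 32 kept) had a median scaled share of 0.6 at 8 h, with 8 of 19 below a scaled share of 0.5. Jarid2, a substoichiometric PRC2 subunit, had 7.49% left and was called lower (limma adjusted p = 0.0479), whereas Rbbp7, a histone-binding subunit, had 42.2%, and Dnmt3l, the most abundant member and a cofactor of de novo methylation, had 34.5%. The zinc-finger genes with Zfp or Zkscan symbols (40 of 335 kept) had a median of 19%, with 13 of 40 below 0.5, 4 called lower and 1 called higher. Among them Zfp622 had 1057.9, 137.5 and 30.3, or 2.86% left, Zfp428 had 6.03%, and Zfp933, the most abundant, kept 42.3%. p53 targets (17 of 22 kept) had a median of 20.2%, and the members with the least left were regulators of apoptosis and stress: Aen, an apoptotic nuclease, with 5.45% (limma adjusted p = 0.0407), Bbc3 (PUMA) with 6% and Sesn2 (sestrin) with 6.62%. Bax, the most abundant p53 target and an effector of apoptosis, kept 29.1%. Homeobox, SOX and forkhead factors (15 of 191 kept) had a median of 27.3% left at 4 h and 22.8% at 8 h as deposited. Their median scaled share was 0.45 at 4 h and 0.72 at 8 h, so the course after 4 h rests on the scaling.

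Adaptors of ubiquitin ligases (20 of 107 kept) had a median of 21.2%, with 6 of 20 below 0.5, against 15.7% of all kept entries. Mediator and Integrator subunits (27 of 46 kept) had a median of 25.2% but a wide range. Med17, a Mediator head subunit, had 1125.9, 134.9 and 30.3, or 2.69% left, and 4 members were called lower. Cdk8, the kinase of Mediator, was the highest of the list, at 292% of its 0 h level. Classes close to the median transcript were RNA decay machinery (26.5% left, 29 kept), mitochondrial ribosomal proteins (27.2%, 66 kept), splicing regulators of the SR and hnRNP families (28.6%, 35 kept), translation factors (30.4%, 59 kept), cholesterol synthesis (31.4%, 13 kept), cytosolic chaperones (32.2%, 26 kept), proteasome (34.7%, 40 kept) and aminoacyl-tRNA synthetases (35%, 23 kept). Within them, Ddx6, a helicase of decapping complexes, had 14.1% left, and Exosc5, an exosome subunit, had 41.3%. Sqle, the squalene epoxidase, had 13%, and Ebp, a sterol isomerase, had 93.3%. Hspa8, the constitutive HSP70, had 15767.6, 7891 and 3028.8, or 19.2% left (16.2% to 22.6%), while its partner chaperone Hsp90ab1 had 36386.8, 26627.4 and 14127, or 38.8% (35.8% to 42%). Dnajb1, a heat-inducible cochaperone, had 6.19% left.

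Among the long-lived classes, cytoplasmic ribosomal proteins were the most numerous, and the fibroblast and matrix lists had the highest medians. Of 87 ribosomal protein genes 86 were kept, with medians of 82.1% left at 4 h and 40.5% at 8 h, 0 of 86 below a scaled share of 0.5 and 1 above 2. Rplp0, a stalk protein of the large subunit, had 55090.5, 47781.9 and 28886.1, or 52.4% left (49.4% to 55.6%), and was called higher relative to the median transcript (slope 0.09 per hour, SE 0.02, limma adjusted p = 0.0162). Its slope with levels as deposited was -0.12 per hour. Rplp1, another stalk protein, was the other member called higher. The lowest member, Rpl7l1, kept 21.3%, and the highest, Rpl17, 68.8% (32.85% to 129%) of a 0 h level of 393.6. Pseudogenes of ribosomal proteins and of other abundant genes such as Eef1a1, Actb and Tuba1b may share reads with them. Nuclear-coded subunits of oxidative phosphorylation (78 of 85 kept) had 83.5% left at 4 h and 44.5% at 8 h, with 0 of 78 below 0.5 and 3 called higher. Cox8a, a subunit of cytochrome c oxidase, had 1881.1, 1926.4 and 1673.8, or 89% left (67.3% to 117%; limma adjusted p = 0.0391), and Ndufc2, of complex I, was lowest with 18.6%. Glycolysis genes (19 of 21 kept) had a median of 44.9%. There Pkm, pyruvate kinase, had 15825.6, 13829.5 and 7101.6, or 44.9% left, Slc16a1, a lactate transporter, had 87.7%, and the glucose transporters differed, with 46% left for Slc2a3 and 12.2% for Slc2a1 (limma adjusted p = 0.0326).

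Basement membrane and extracellular matrix genes, products typical of parietal endoderm in EBs, lost little. Of 28 listed, 18 were kept, with medians of 103% left at 4 h and 71.5% at 8 h, 13 of 18 had a scaled share above 2, against 8.59% of all kept entries, and 2 were called higher. Serpinh1, the collagen chaperone HSP47, had 18924.3, 18831.4 and 16769.2, or 88.6% left (81.4% to 96.4%; slope 0.18, SE 0.03, limma adjusted p = 0.0121). Sparc, a collagen-binding matrix protein, had 6757.8, 7347.2 and 5596.4, or 82.8% left (limma adjusted p = 0.024). Both courses were nearly flat as deposited, with slopes of -0.02 and -0.03 per hour. Col4a1, a chain of type IV collagen, had 3593.3, 3916.5 and 3582.8, or 99.7% left, and Lamb1, a laminin chain, had 4737.5, 4839.6 and 3367.6, or 71.1%. Neither passed limma (slopes 0.21, SE 0.08, adjusted p = 0.17 for Col4a1, and 0.15, SE 0.05, adjusted p = 0.171 for Lamb1). Lama5, another laminin chain, was the lowest with 19.8%, and Bgn (biglycan) the highest, at 217% of a 0 h level of 307.7.

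Secreted carriers of endoderm were long-lived too. Of 26 listed, 14 were kept, with medians of 86.5% left at 4 h and 65.8% at 8 h, 8 of 14 had a scaled share above 2, and 0 passed limma in either direction. Apoe, apolipoprotein E, had 7723.9, 6443.4 and 3478, or 45% left (38.1% to 53.2%). Ttr, transthyretin, had 2643.1, 1739.3 and 1333.9, or 50.5%, and Ctsl, cathepsin L, had 3498.9, 3131.5 and 2495.5, or 71.3%. Afp, alpha-fetoprotein, kept 67.1%, and Apoa1, apolipoprotein A-I, kept 91.2%. Regulators of definitive and visceral endoderm (8 of 18 kept) held a median of 45.9%, with Dab2, an endocytic adaptor of visceral endoderm, at 100% and Sall4, a zinc-finger factor shared with pluripotent cells, at 17.2%. Endoplasmic reticulum folding and secretion genes (26 of 27 kept) had a median of 48.7%, 5 of 26 above 2 and 2 called higher. Those were Calr (calreticulin), with 6566.2, 5746 and 4778.9, or 72.8% left (limma adjusted p = 0.0253), and P4hb, protein disulphide isomerase, with 79.5% (limma adjusted p = 0.0164). Their fellow chaperone Hspa5 (BiP) had 14516.7, 9034 and 5235.8, or 36.1%.

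Cytoskeletal genes (30 of 32 kept) had a median of 48.2% left, with 7 of 30 above a scaled share of 2, 3 called higher and 1 lower. Actb, beta-actin, had 56207.9, 54078.5 and 34652.7, or 61.7% left (58.4% to 65.1%; limma adjusted p = 0.00406), and Tmsb4x, thymosin beta-4, an actin monomer binder, had 76.3% (limma adjusted p = 0.0103). Tubulins were shorter-lived than actin: Tuba1b had 41873.6, 28937 and 12319.2, or 29.4% (27% to 32%), Tubb5 had 30.2%, and Tubb4b had 8111.6, 4061.1 and 908.3, or 11.2% (8.32% to 15%; limma adjusted p = 0.024). Keratins and junction genes (18 of 26 kept) had a median of 45.9%, with Krt8, a simple epithelial keratin, at 72.8%, Cdh1 (E-cadherin) at 45.7% and Anxa2, an annexin, at 132%. All 5 kept genes of the fibroblast and feeder list had scaled shares above 2, with Fn1 (fibronectin) at 77.3%, S100a6 at 91.9% (limma adjusted p = 0.0232) and Vim (vimentin) at 93.8%. Thy1, a surface marker of fibroblasts, stood at 416, 324.2 and 911.8. The summed level of 7 feeder markers was 804.9, 958.2 and 1374.7 in WT EBs at 0, 4 and 8 h, with none of the 7 higher than 156.5 at 0 h apart from Thy1, and their part in the matrix results was not tested.

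The 12 largest rises relative to the median transcript were all above their own 0 h level at 8 h as deposited. Malat1, a nuclear long noncoding RNA, had 477.5, 1151.1 and 2005.1, or 420% of its 0 h level (286% to 652%; slope 0.46 per hour, SE 0.06, limma adjusted p = 0.00112). Cdk8 had 1489.8, 3621.3 and 4352.5 (limma adjusted p = 0.00129), and Peak1, a pseudokinase, had 2285.6, 7446 and 5679.8. Col6a6, Zfp791, Pknox1, Gphn, Timp1, Tekt3, Lars2 and Cpq were also among the 12 largest, with 145% to 280% of the 0 h level at 8 h. Of the 59 called rises, 31 stood above their 0 h level as deposited. Some abundant entries were present at a like level in all 12 libraries: Trim30a, whose reads may be shared with near-identical family members, ranged from 18770.3 to 28919.2, Afm from 11353.6 to 16946.5 and Tlk1 from 9176.2 to 15349.6. In WT EBs their 8 h levels were 120% (111% to 129%), 122% (110% to 135%) and 128% (115% to 143%) of those at 0 h for Trim30a, Afm and Tlk1, against 88.8%, 91.3% and 84.6% in KO EBs. Among 16 entries with a 0 h level of at least 1000 that were at or above it at both later times, 6 had 0 h levels within 1.5-fold across the 4 conditions, against 10.5% of all kept entries. Noncoding entries as a whole (97 kept) had a median of 36% left at 8 h, against 31.3% for 4620 coding entries.

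Set against WT ESCs, the order of transcripts was related but not the same. Across the 4216 entries with a 0 h level of at least 300 in both, the scaled share at 8 h in WT EBs had a Spearman correlation of 0.51 with that in WT ESCs, and across 3669 entries 0.48 with that in KO EBs. These are descriptions across genes, which are not independent replicates. No slope differed between WT EBs and WT ESCs in limma (0 of 4717 kept entries lower and 0 higher, 0%), with 519 kept entries (11%) at an unadjusted p under 0.05. The smallest p-values were those of A430005L14Rik, which kept 26.6% at 8 h in WT EBs against 2.59% in WT ESCs, Trim30a and Tcp11l1 (15.2% left in WT EBs), each with a limma adjusted p of 0.148. With the levels as deposited, 261 kept entries (5.53%) fell faster in WT EBs and 1 (0.0212%) more slowly, against 2.06% and 0.0708% of all entries tested. Against KO EBs, 3 kept entries (0.0636%, against 0.0236% of all entries tested) had higher slopes in WT EBs relative to the median and 0 had lower ones, with 340 (7.21%) at an unadjusted p under 0.05, whereas as deposited 146 (3.1%) fell faster in WT EBs and 0 more slowly, against 1.19% faster of all entries tested. The 3 were Tlk1, a chromatin kinase (difference 0.23 per hour, SE 0.03, limma adjusted p = 0.0282), Trim30a (0.21, adjusted p = 0.0282) and Afm (0.21, adjusted p = 0.0289). With levels as deposited the differences were 0.05 to 0.07 and did not pass (adjusted p = 0.399 to 0.6). Mettl3, the targeted gene, had levels of 175.3, 86 and 77.4 at 0, 4 and 8 h in WT EBs, against 16.8, 40.7 and 83.9 in KO EBs, so it was lower in KO EBs at 0 and 4 h and not at 8 h. The reads lie at the 3′ end, and whether they fall outside the deleted part is not given in the labels.

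Class medians over entries kept in both WT cell types gave a description of where the states parted. Immediate early genes had a median scaled share of 0.44 in WT EBs against 0.15 in WT ESCs, and 16 of 16 were higher in WT EBs, where 47.2% of all 4216 entries were. Junb had a scaled share of 1.35 in WT EBs against 0.11 in WT ESCs, and Ccn2 one of 0.89 against 0.1, the levels of WT ESCs at 8 h being 32.7 and 58.2, worth about 1 and 2 reads. The silent families reached a higher level in the WT EB library of 8 h (95% of entries at or below 72.7 in WT EBs, against 30.8 in WT ESCs), and 7 of the 16 immediate early entries were at or below it in WT EBs, against 3 in WT ESCs. After the mean silent-family level of each library was subtracted, a step added after seeing the data, the medians were 0.38 in WT EBs against 0.15 in WT ESCs, with 15 of 16 higher in WT EBs. Clustered histones had 0.3 in WT EBs against 0.1 in WT ESCs (6 of 7 higher in WT EBs), but all 7 were at or below the silent-family level in WT EBs at 8 h. The p53 targets had a median of 0.66 in WT EBs against 0.34 in WT ESCs (10 of 15 higher in WT EBs), and matrix genes 2.21 against 1.27 (8 of 13). The opposite held for core pluripotency genes, with 0.54 in WT EBs against 0.89 in WT ESCs and 1 of 16 higher in WT EBs. Ribosomal proteins had 1.28 in WT EBs against 1.73 in WT ESCs (10 of 86 higher in WT EBs), oxidative phosphorylation 1.41 against 1.76 (20 of 78), and splicing regulators 0.9 against 1.29 (8 of 35). Naive pluripotency genes had 0.42 in WT EBs against 0.43 in WT ESCs (9 of 15 higher in WT EBs), but members moved in both directions. Klf4 had 0.53 in WT EBs against 0.04 in WT ESCs and Tbx3 1.26 against 0.23. By contrast, Nr0b1 had 0.31 in WT EBs against 1.25 in WT ESCs and Esrrb 0.14 against 0.43. Klf4 ended at alike low levels, 53.8 in WT EBs, below the silent-family level of 72.7, and 62.8 in WT ESCs. Its 0 h levels were 320.1 in WT EBs and 2547 in WT ESCs, so its 8 h share in WT EBs is poorly resolved. Each condition was scaled to its own median, so these are differences relative to that median and not in absolute loss. As deposited, over the entries kept in each cell type, p53 targets had a median of 20.2% left at 8 h in WT EBs against 23.7% in WT ESCs. Matrix genes had 71.5% in WT EBs against 88.7% in WT ESCs. For these 2 classes the direction thus rests on the scaling, while immediate early genes had 11.5% in WT EBs against 9.3% in WT ESCs. Class medians were not compared under ribosomal protein scaling, whose 8 h factors were 0.386 in WT EBs and 1.2 in WT ESCs. The directions for ribosomal proteins, oxidative phosphorylation and splicing regulators may therefore rest on the scaling too.

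**Figure D4:**
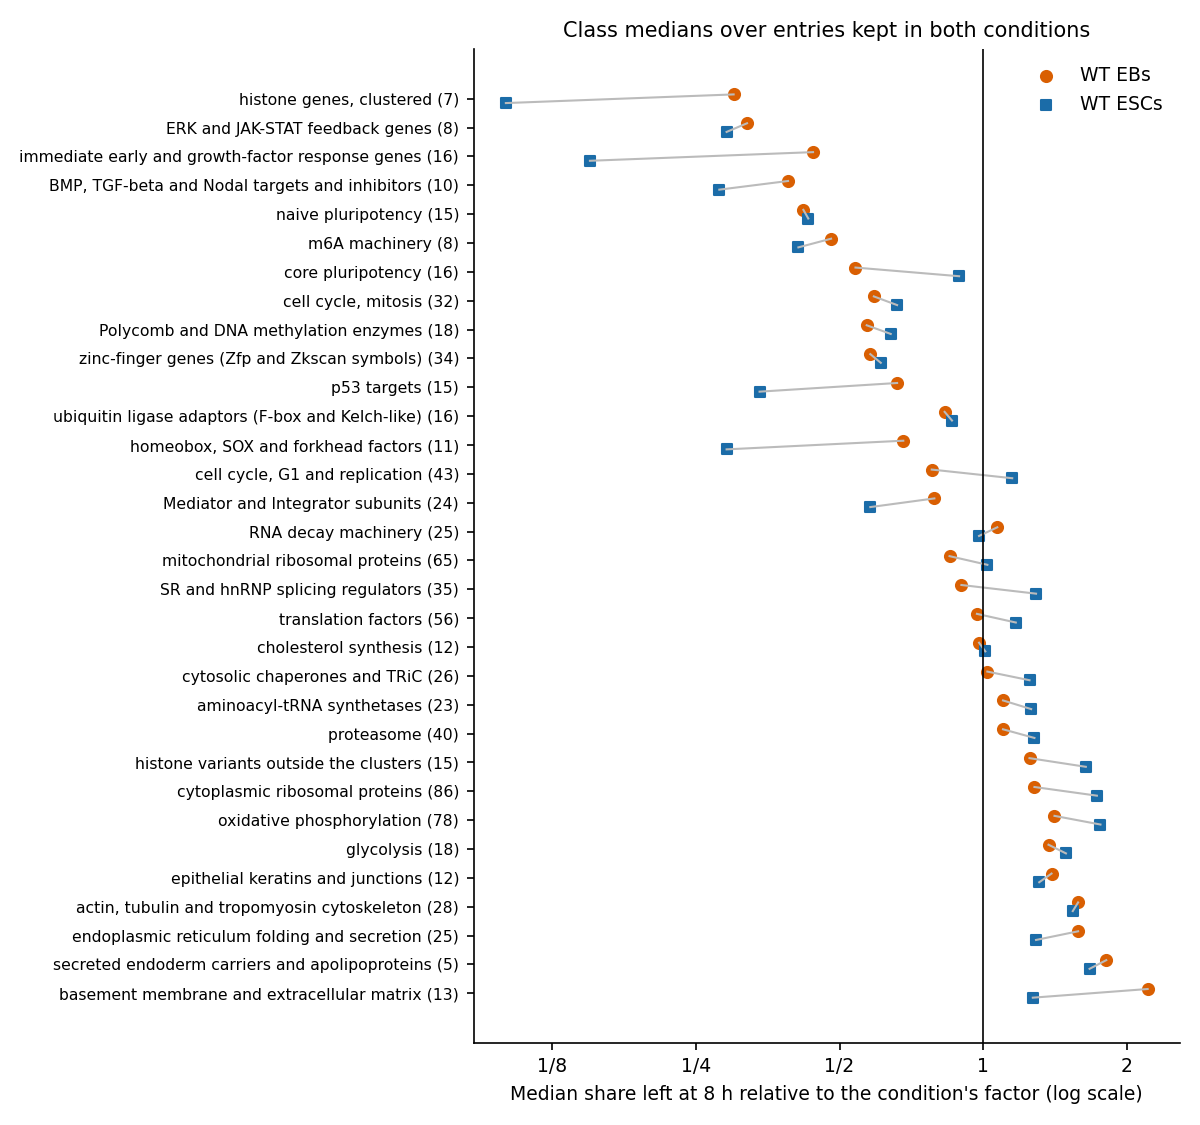
Median scaled share left at 8 h (x axis, log scale) in WT EBs (orange circles) and WT ESCs (blue squares) for classes with at least 5 entries kept in both (rows, number in brackets). Immediate early genes stand at 0.44 in WT EBs against 0.15 in WT ESCs and core pluripotency genes at 0.54 against 0.89; these are single libraries with no error.

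Features of the transcripts that the choice of members did not use moved with the share left. Exon density of the gene model (exons per kb of coding sequence, GENCODE M21) showed the steepest gradient, with median shares left at 8 h of 23.8%, 30.8%, 33.1% and 36.6% from the lowest to the highest of 4 bins of like size over 4615 entries (Spearman correlation across genes 0.26 with the scaled share at 8 h). The gradient was present at each level: in entries of 300 to 500 the lowest bin kept 24.2% and the highest 34.2%, in those of 500 to 1000, 21% and 34.5%, and in those of 1000 or more, 27.2% and 39.2%. Genes with few exons for their coding length include the clustered histones, many immediate early genes and Sox2, Klf2 and Foxd3. The number of exons alone had no such relation (Spearman correlation 0.03).

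In the 3′ UTR, the share left fell with copies of both elements. Entries with no TATTTAT kept a median of 32.6% at 8 h, those with 1 copy 29.5% and those with 2 or more 25.6%, over 3483, 795 and 321 entries. For the Pumilio octamer TGTANATA, in which N is any base, the medians were 33%, 26.3% and 23.5% over 3620, 707 and 272 entries. The octamer was found on the transcript strand in 21.3% of UTRs. Long UTRs hold more copies and were themselves shorter-lived, with 34.8% left in the shortest bin and 28.8% in the longest. Within each of 4 bins of UTR length, entries with an element still kept less: in the longest bin, 27.4% with TATTTAT against 30.5% without it, and 26.3% with TGTANATA against 30.6% without it, and in the shortest bin 30.8% against 34.8% and 24.5% against 35.1%. The difference for TATTTAT is small beside the range between entries. Among the classes, TATTTAT was rare in some long-lived ones, namely ribosomal proteins (2.38% of UTRs), oxidative phosphorylation (6.41%) and secreted carriers (7.14%). Other classes with more left at 8 h than the median transcript carried it more often than the 24.3% of all entries. They were matrix genes (44.4%), fibroblast and feeder genes (40%), endoderm regulators (37.5%) and glycolysis (36.8%). The clustered histones, with the lowest median share, had it in 0 of 8. These windows come from 1 annotated transcript a gene, and the 3′ end used in EBs was not determined.

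**Figure D5:**
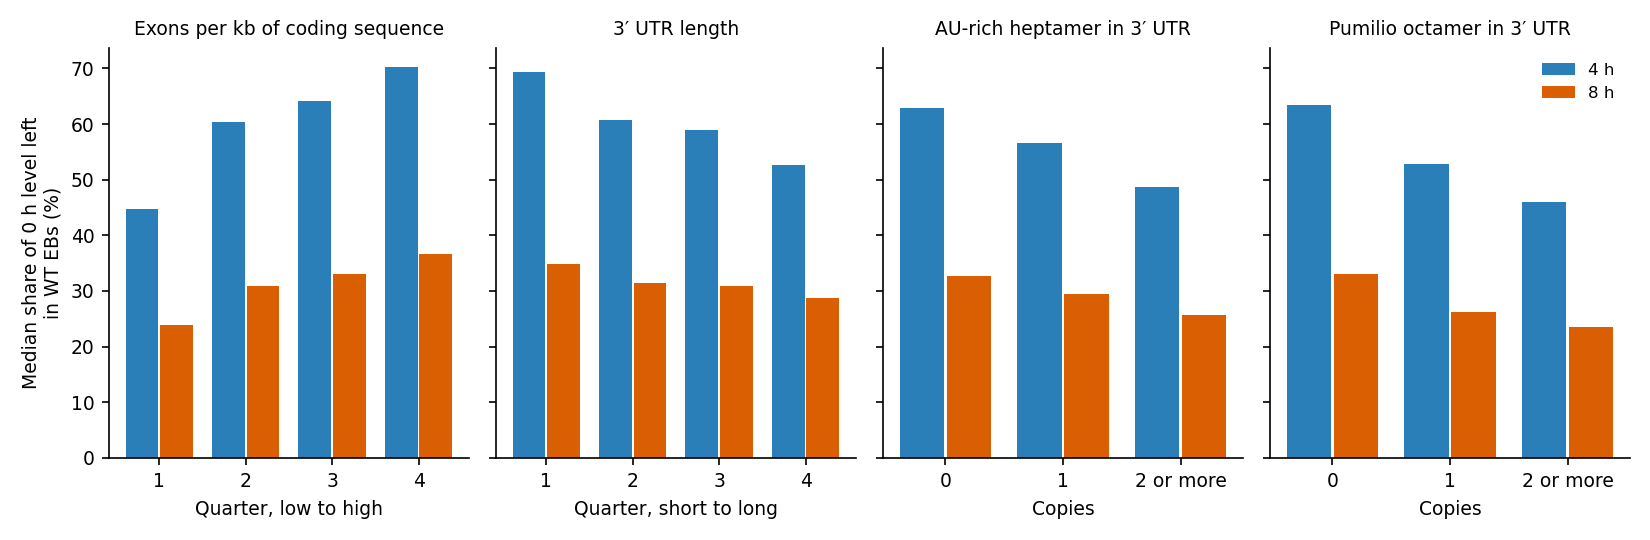
Median share of the 0 h level left in WT EBs (y axis, %, from 0) at 4 h (blue) and 8 h (orange) by bin of exon density, bin of 3′ UTR length, and copies of the AU-rich heptamer or the Pumilio octamer in the 3′ UTR. At 8 h the medians run from 23.8% to 36.6% with exon density and from 33% to 23.5% with copies of the Pumilio octamer.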

How the data were processed

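Polyadenylated RNA of WT EBs was measured at 0, 4 and 8 h after actinomycin, in 1 library each, by sequencing of 3′ fragments with a strand-specific protocol, per the labels' protocols. The deposited values are a normalized signal per RefSeq transcript. Per the submitters' processing notes, mm10, CASAVA 1.8.2, Bowtie and Bowtie2 2.1.0 were used; the method of counting and the scaling applied are not stated by any label or header. From 19746 table entries, 38 identical duplicates were dropped, which left 19708, of which 113 had no symbol. Symbols came from RefSeq and GENCODE.

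Read equivalents were inferred from the value of 1 read in each library. Because low values are not all whole steps, they are approximate, and the 95% exact Clopper-Pearson intervals cover counting error only. A floor of 3 counts was used where the 8 h level was 0.

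Factors were the median ratios of the 4 and 8 h libraries to the 0 h library of the same condition (4712 entries in WT EBs). Levels divided by them were transformed as log2(level + 8.58), which is 1 ppm of the mean column total, and fitted in limma 3.58.1 (R 4.3.3) with a straight line over hours in each of 4 conditions over all 12 libraries (8 coefficients, 4 residual degrees of freedom, trended prior). Fold changes on this scale are understated for low levels. Entries with a mean of at least 42.9 (5 ppm) were tested, two-sided, with Benjamini-Hochberg adjustment over 12704 entries. The procedure was tested on simulated data, where the calls it made on unchanged kept entries were falls, nearly all with few reads at 8 h, and many changed entries were missed. Remaining steps used Python 3.11.15 with pandas 2.3.3, numpy 2.4.6, scipy 1.17.1 and matplotlib 3.10.9.

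Alternatives were other scalings, pseudocounts, filters and thresholds, subsets of conditions, background subtraction, no variance trend, weights for counting error and leaving out each library. The members and the 40 gene lists were chosen with earlier results of these data known. Genes named were the 12 steepest called falls and 12 largest called rises, up to 6 called in each direction for each difference or else the 3 with the smallest p, the 4 most abundant and the lowest and highest members of each list, and the 6 most abundant entries. One entry that this rule names is not reported here. Genes shown for their sequence, at the threshold, as cell type markers, or as deep falls, and Id1 and Nanog, were named after their values were seen. Libraries carry no replicate numbers, so no pairing was made.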

Additional observations from a re-analysis of the deposited data

Results flagged for a closer look

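The slope of 3 transcripts differed between WT EBs and KO EBs by the limma test of the difference, with Benjamini-Hochberg adjustment. Tlk1 had a difference of 0.23 per hour (adjusted p = 0.0282), with levels of 9236.4, 11055.7 and 11816.5 at 0, 4 and 8 h in WT EBs, against 10845.8, 9830.6 and 9176.2 in KO EBs. Trim30a had a difference of 0.21 (adjusted p = 0.0282), with 19336.8, 22115.9 and 23122.9 in WT EBs, against 21129.5, 19309.4 and 18770.3 in KO EBs. Afm had a difference of 0.21 (adjusted p = 0.0289), with 11562.9, 13771.9 and 14100.6 in WT EBs, against 12433, 12499.3 and 11353.6 in KO EBs. None of the 3 passed with levels as deposited (adjusted p = 0.399 to 0.6), equal totals (0.0539), EB conditions alone (0.0587 to 0.0786), no filter (0.269) or no variance trend (0.59). None passed without the WT EB library of 0 h (0.393), and none without that of 8 h (0.44 to 0.511).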

How the results depend on the processing

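Against 164 entries called for the WT EB slope (81 lower, 83 higher), limma called 3410 with levels as deposited (3394 lower), 304 with equal column totals (259 lower), 251 with a pseudocount of 4 ppm, 92 with no filter, 306 among entries with a WT EB mean of at least 300, 342 with silent-family background subtracted, 0 without the variance trend, 1098 from EB conditions alone, 46 from WT conditions alone and 332 with weights for counting error, an alternative chosen after seeing the data. Ribosomal protein scaling gave 177 calls (134 lower, 43 higher). Leaving out 1 WT EB library gave 0 to 174. For WT EBs minus WT ESCs, against 0 calls, limma gave 271 as deposited and 2 with ribosomal protein scaling, and 0 to 0 without 1 library. For WT EBs minus KO EBs, against 3, it gave 151 as deposited, 0 with equal totals, 0 with no filter, 10 with a WT EB mean of at least 300, 0 without the trend, 0 from EB conditions alone, 5 with the weights and 0 to 3 without 1 library. The median share left at 4 h was 60.8%, and it was 83.4% with equal totals, 71.6% with ribosomal protein scaling, 70.5% for 0 h levels of at least 1000, 69% for a mean of at least 300 and 59.9% after background subtraction. At 8 h it was 31.4%, against 71%, 81.4%, 35.2%, 35.1% and 29.6% under those settings and 37.3% for 0 h levels of at least 100. Slopes called higher relative to the median were below 0 as deposited for Rplp0 (-0.12), Actb (-0.09), Calr (-0.06), Tmsb4x (-0.05), P4hb (-0.04), Sparc (-0.03), Serpinh1 (-0.02), S100a6 (-0.02) and Cox8a (-0.02). The cause of these differences between settings was not tested. No paired analysis was possible because the labels give the libraries no replicate numbers. With 1 library a group, 208872 read equivalents at 8 h limit what can be said of transcripts that were nearly gone.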

Other observations

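Imprinted genes and structural noncoding RNAs were kept in small numbers. Of 20 imprinted genes 6 were kept, with a median of 50% left at 8 h in WT EBs. Mest, a hydrolase-like protein expressed from the paternal allele, had 6.98% left and Impact, a regulator of translation, stood at 124% of its 0 h level. Of 7 snoRNA host and structural noncoding RNAs 5 were kept, with a median of 48.8% left and 43.6% left for the lowest, Mirg. None of the 6 imprinted entries passed limma in either direction (0 lower, 0 higher).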
